A study of Mus musculus with 9 samples.

Results

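Integrins are the cell surface receptors through which cells hold on to the extracellular matrix, and laminins are the main adhesive proteins of the basement membrane. Each integrin is a heterodimer of 1 alpha and 1 beta subunit. The alpha subunit largely sets which ligand is bound, namely laminin, collagen, proteins with an RGD (arginine, glycine, aspartate) motif, or counter-receptors on other cells. Each laminin is a trimer of an alpha, a beta and a gamma chain that is secreted, polymerises and is bound by integrins and by dystroglycan. In the islet, the basement membrane lies along the capillaries and at the islet border, and it is known to be made largely by endothelial cells, while beta cells contact it through integrins of the β1 family and others.

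The genes described here are all those whose symbols in the array annotation begin with the letters of an integrin alpha or beta subunit or of a laminin alpha, beta or gamma chain. They were 39 of the 18193 genes that the arrays named, with 84 probe sets. Of these, 35 encode subunits, namely 16 integrin alpha subunits, 9 integrin beta subunits and 10 laminin chains. The other 4 symbols (*Itgb1bp1*, *Itgb1bp2*, *Itgb3bp* and *Itgbl1*) share the letters but encode no subunit, and were counted apart. No measured value entered the choice of the 39, although earlier results of these data were known when it was made.

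RNA was measured on 9 Affymetrix mouse whole-genome arrays, each loaded with RNA pooled from the islets of 5 male mice aged 8 weeks whose strain is labelled C57BL/6. The 4 knockout (KO) pools came from βRapKO mice, which carried *Raptor* flox/flox alleles and Cre recombinase under the rat insulin promoter (RIP-Cre). The 5 wild-type (WT) pools came from *Raptor* flox/flox littermates without Cre, so that both groups carried the floxed alleles and only the KO group carried the transgene. Raptor is the scaffold of mTORC1, a growth-controlling kinase complex, and the deletion was directed to insulin-expressing cells, which leaves the gene intact in the endothelial, stromal and other endocrine cells of the islet. The RIP-Cre line was of a mixed strain background, and the floxed line was on C57BL/6J. The comparison addressed which transcripts differ in islets whose beta cells lack mTORC1.

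The targeted gene *Rptor* read 9.53, 9.59, 9.71, 9.22 and 9.30 (log2 signal) in the WT pools and 8.59, 8.48, 9.21 and 8.73 in the KO pools. The difference was -0.72 ± 0.17 (SE, limma adjusted p = 0.0410), with a call that was near the threshold and was kept in 7 of 18 alternative settings. Where its probe set lies relative to the deleted part of the gene is not given in the sources used here. Array medians lay between 6.85 and 7.05, and the 8 beta cell markers analysed were bright in both groups, the dimmest at a mean of 11.49. With 5 and 4 arrays, the number of arrays limits the precision, and p-values measure the spread between pools.

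The 250 bases upstream of the transcription start follow for *Itgav*, the gene of the set that passed the test, and for *Lamb1*, *Lama2* and *Lamb2*, the laminin genes whose KO values all lay above the WT values. They are RefSeq windows of GRCm38.p6, written 5′ to 3′ on the strand of the gene, with CG dinucleotides in capitals. The windows lie at chr2:83724147-83724396 (plus strand), chr12:31265043-31265292 (plus strand), chr10:27616943-27617192 (minus strand) and chr9:108479612-108479861 (plus strand), in this order.
Itgav: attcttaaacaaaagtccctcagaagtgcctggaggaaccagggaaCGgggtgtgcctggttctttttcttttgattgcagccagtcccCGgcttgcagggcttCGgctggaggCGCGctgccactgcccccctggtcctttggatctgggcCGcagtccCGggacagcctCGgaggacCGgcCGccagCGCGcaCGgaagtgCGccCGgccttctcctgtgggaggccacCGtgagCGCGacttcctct
Lamb1: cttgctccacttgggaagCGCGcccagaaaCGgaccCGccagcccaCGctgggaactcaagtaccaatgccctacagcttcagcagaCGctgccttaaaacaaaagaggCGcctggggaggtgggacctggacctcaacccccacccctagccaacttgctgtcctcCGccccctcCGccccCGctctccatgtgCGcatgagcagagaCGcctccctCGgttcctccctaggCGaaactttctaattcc
Lama2: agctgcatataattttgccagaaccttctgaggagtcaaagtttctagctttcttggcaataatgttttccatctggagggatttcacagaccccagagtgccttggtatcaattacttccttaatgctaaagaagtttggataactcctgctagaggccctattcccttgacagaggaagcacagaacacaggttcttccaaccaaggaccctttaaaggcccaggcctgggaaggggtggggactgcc
Lamb2: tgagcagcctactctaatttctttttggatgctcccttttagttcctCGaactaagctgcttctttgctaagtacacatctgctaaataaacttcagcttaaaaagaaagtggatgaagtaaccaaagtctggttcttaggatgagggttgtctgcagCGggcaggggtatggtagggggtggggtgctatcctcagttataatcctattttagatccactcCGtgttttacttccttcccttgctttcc

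These 4 windows differed widely in CG content. That of *Itgav* held 18 CG dinucleotides at a GC content of 64.4% and that of *Lamb1* held 14 at 62.0%, whereas that of *Lamb2* held 3 and that of *Lama2* 0. The median over 32851 RefSeq windows of the same length was 6. A search of both strands for the letters GGGCGG (the GC box), TATAAA (the TATA box), CCAAT (the CCAAT box), CACGTG (an E-box) and TGANTCA (the AP-1 site, with N for any base) found 2 GC boxes and 1 CCAAT in the *Lamb1* window, not overlapping each other, and no match in the other 3. GGGCGG was held by 32.7% of all windows, TATAAA by 12.4%, CCAAT by 33.8%, CACGTG by 6.02% and TGANTCA by 6.75%. These matches describe the letters only, and windows were matched for 26 of the 39 genes.

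Of the 39 genes, 31 were bright enough to be tested and 1 differed between KO and WT islets. This was *Itgav*, the integrin αv subunit, which fell. None of the 31 rose. Among all 13644 genes tested, limma called 6.30% at an adjusted p under 0.05. These were 501 genes (3.67%) that rose and 359 (2.63%) that fell, or 214 and 260 with each array centred on its median. Thus 1 of 31 was no more than the share of all genes. The 31 genes were measured less precisely, with a median SE of 0.22 beside 0.15 over all tested genes, so a call needed a larger difference. At an unadjusted p under 0.05 there were 6 of 31 genes, 5 of them higher in KO islets, where 21.8% of all tested genes passed. The KO and WT values did not overlap for 4 of the 31 genes (*Itgav* below, *Lamb1*, *Lama2* and *Lamb2* above), near the 12.5% of all tested genes (7.43% above, 5.05% below). The KO mean was the higher one for 22 of the 31, with a median log2 difference of 0.28, beside a median of 0.04 over all tested genes, 56.2% of which had the higher KO mean. *Itgbl1* and *Itgb7* stand among these 22, and *Itgbl1* also among the 5. Their WT means of 5.497 and 5.21 lay under the filter at 5.505, which they passed only through their KO signal. The remaining 8 genes were left out as dim and are given further on.

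**Figure D1:**
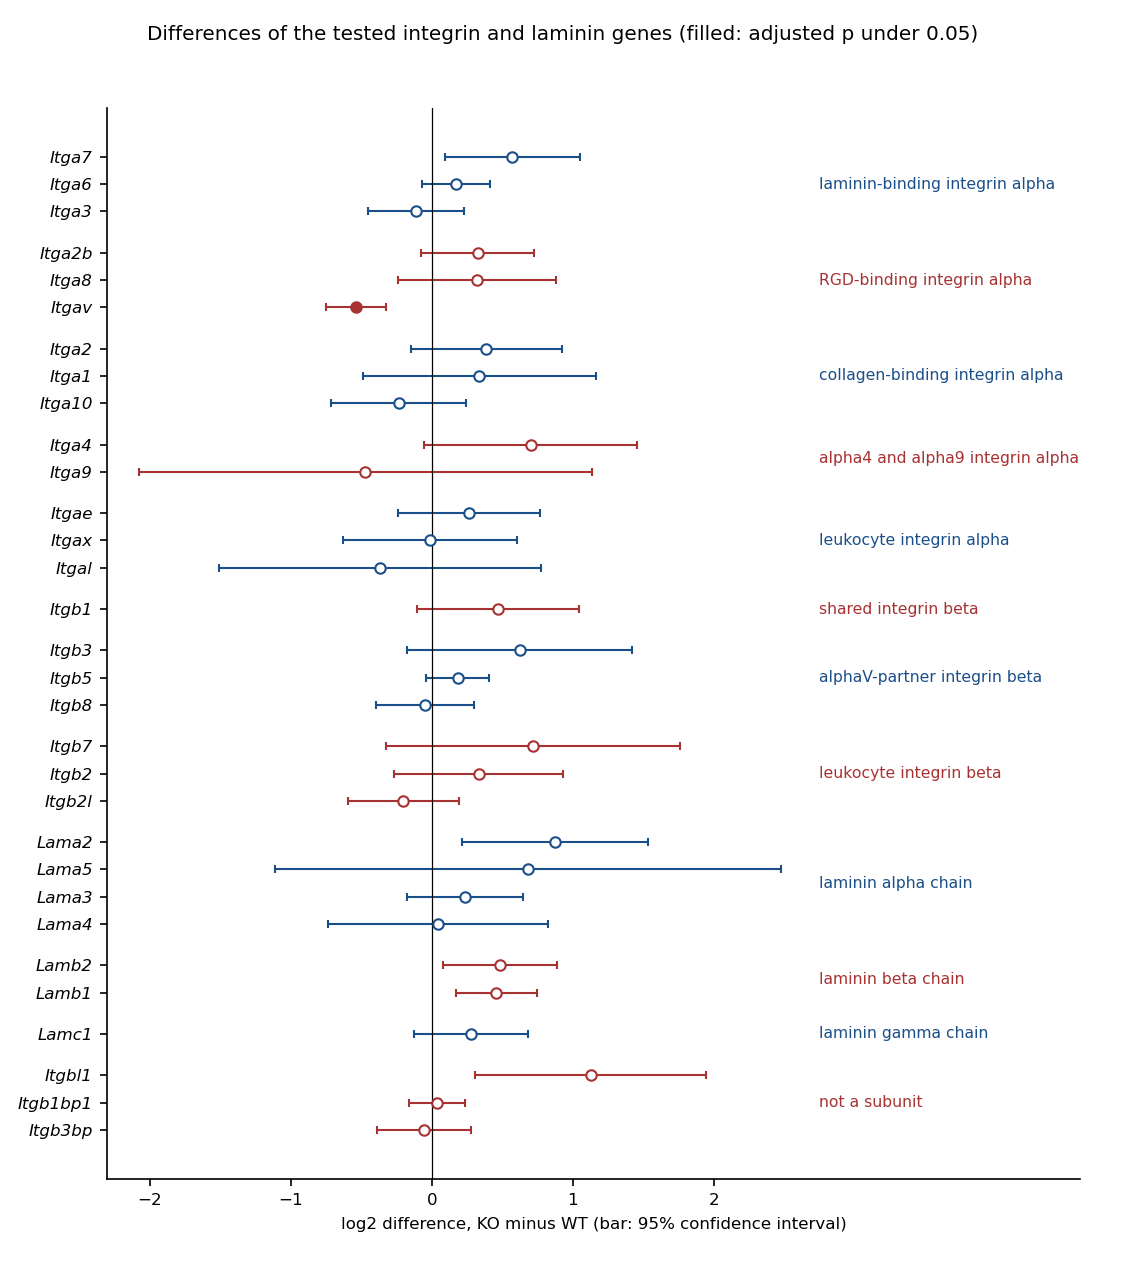
Log2 difference (KO minus WT, horizontal axis) of the 31 tested integrin and laminin genes, grouped by role, with 95% confidence intervals from limma as bars; the filled point marks an adjusted p under 0.05, and the alternating colours only set the roles apart. *Itgav* alone is filled, at -0.54, and the intervals of *Itga7*, *Lama2*, *Lamb1*, *Lamb2* and *Itgbl1* lie above 0 without passing the adjusted test.

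Among the laminin chains, which are the ligands, 7 of 10 were tested, and none passed the test. All 7 had a higher mean in KO islets, with a median difference of 0.46, but 3 of these directions did not hold in every setting. *Lama4* turned to -0.0036 with quantile normalization. It also turned without WT replicate 1 (-0.037) or 4 (-0.011), and without KO replicate 1 (-0.0049), 2 (-0.045) or 3 (-0.20). With probe sets averaged *Lama3* turned to -0.20 and *Lama5* to -0.13. *Lamb1* encodes the β1 chain, a partner in most laminins of vascular and islet basement membranes. It read 9.19, 9.11, 9.50, 9.35 and 9.42 in WT pools and 10.08, 9.76, 9.58 and 9.68 in KO pools. Every KO pool lay above every WT pool, and KO replicate 1 was the highest. The log2 difference was 0.46 ± 0.13 (SE), or 1.37-fold, with a 95% interval of 0.17 to 0.75 and a limma adjusted p of 0.0702. It passed the threshold with a stricter filter that left 9096 genes (limma adjusted p = 0.0316) and when limma's spread was modelled by signal, a setting chosen after seeing the data (adjusted p = 0.0382), and the adjusted p ranged up to 0.479 over 18 alternatives.

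*Lama2* encodes the α2 chain, best known from muscle and peripheral nerve, where it joins the matrix to dystroglycan. It read 7.41, 6.63, 8.12, 7.56 and 8.04 in WT pools and 8.26, 8.38, 8.27 and 8.80 in KO pools. The groups did not overlap, but the gap between the highest WT and the lowest KO pool was small beside the WT spread. The difference was 0.88 ± 0.29 (SE), or 1.84-fold, and did not pass the test (limma adjusted p = 0.115).

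*Lamb2* encodes the β2 chain, which replaces β1 in the laminins of the glomerulus, the neuromuscular junction and some vessels. It read 6.51, 6.38, 7.13, 6.84 and 7.11 in WT pools and 7.16, 7.49, 7.31 and 7.14 in KO pools. WT replicate 3 and KO replicate 4 were nearly level, so the absence of overlap rested on a narrow margin. The difference was 0.48 ± 0.18 (SE, limma adjusted p = 0.149).

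*Lamc1*, the γ1 chain that most laminins share, read 8.37 ± 0.37 (SD, n = 5) over WT pools and 8.65 ± 0.08 (SD, n = 4) over KO pools, with a difference of 0.28 and a 95% interval of -0.12 to 0.68. *Lama4*, the α4 chain of endothelial basement membranes, read 7.77 ± 0.29 in WT and 7.81 ± 0.81 in KO islets. Its difference of 0.05 had a 95% interval of -0.73 to 0.83, so a change of either direction was not detectable with these arrays. *Lama5* encodes the α5 chain of mature vascular and epithelial laminins, and its SE of 0.79 was the largest among the tested laminins. It read 10.59, 7.89, 11.31, 10.14 and 12.34 in WT pools and 11.11, 10.35, 11.01 and 12.09 in KO pools. The WT range enclosed the KO range, and the difference of 0.69 had a 95% interval of -1.11 to 2.48. *Lama3*, the α3 chain of epithelial laminins, differed by 0.24 with an interval of -0.17 to 0.64. WT replicate 2 was the lowest WT pool for 6 of the 7 tested laminin chains, the exception being *Lama4*, and without it the differences were 0.65 for *Lama2*, 0.41 for *Lamb1*, 0.38 for *Lamb2*, 0.15 for *Lamc1*, 0.15 for *Lama3* and 0.043 for *Lama5*.

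**Figure D2:**
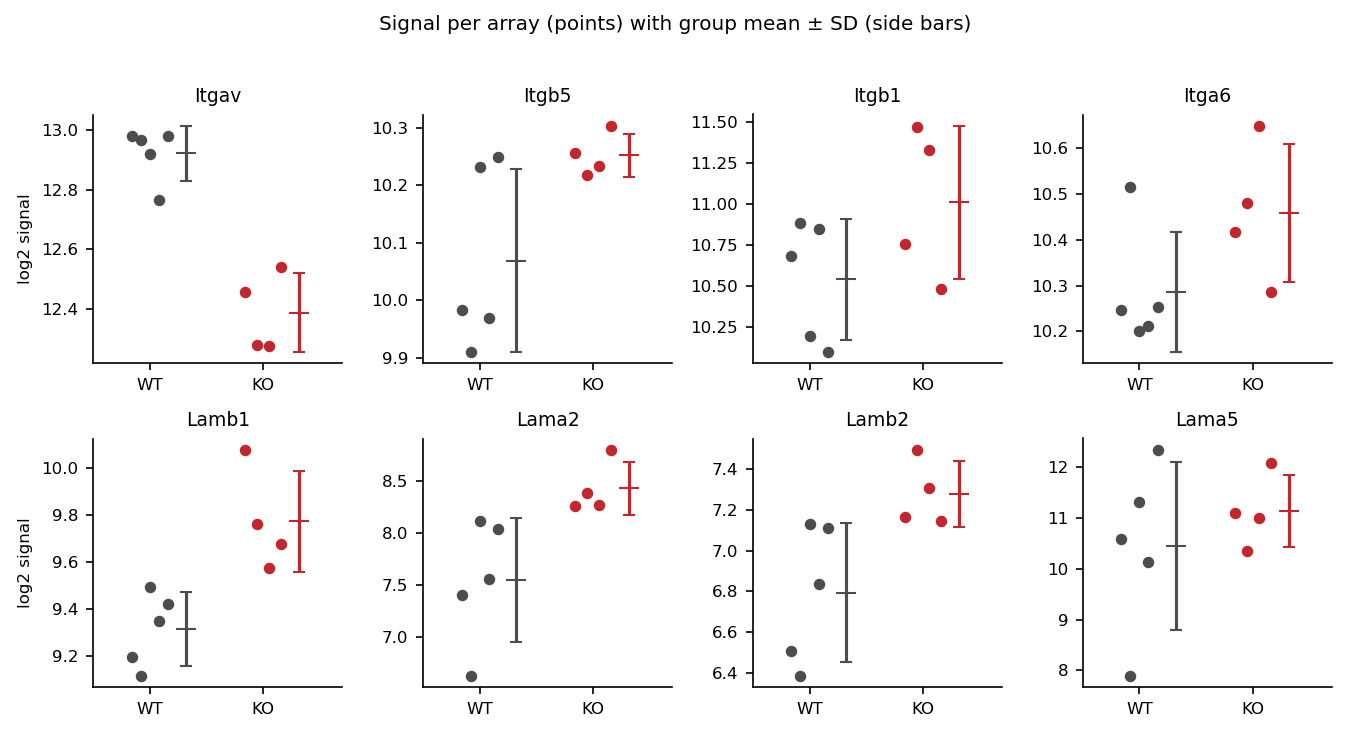
Log2 signal (vertical axis, range set for each panel) of 8 genes in the WT pools (5 grey points) and the KO pools (4 red points), with the group mean and SD as side bars. The KO points of *Itgav* (12.27 to 12.54) lie below all WT points and those of *Lamb1*, *Lama2* and *Lamb2* lie above them, whereas the points of *Itgb5*, *Itgb1*, *Itga6* and *Lama5* overlap.

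The laminin-binding integrin alpha subunits did not pass the test, and 2 of the 3 had a higher mean in KO islets. *Itga6*, the α6 subunit that pairs with β1 or β4 and is the best known laminin receptor subunit of beta cells, read 10.29 ± 0.13 (SD, n = 5) over WT pools and 10.46 ± 0.15 (SD, n = 4) over KO pools. The difference of 0.17 ± 0.11 (SE) had a 95% interval of -0.07 to 0.41. A second probe set of *Itga6* differed by 0.0055 ± 0.23. *Itga3*, the α3 subunit of epithelial cells, read 8.996 ± 0.22 in WT and 8.88 ± 0.24 in KO islets, a difference of -0.11 with an interval of -0.45 to 0.23. *Itga7*, the α7 subunit of muscle and pericytes, read 6.69, 6.79, 7.15, 7.35 and 6.24 in WT and 7.30, 7.52, 7.59 and 7.26 in KO pools. The groups overlapped at WT replicate 4 alone, and the difference was 0.57 ± 0.21 (SE, limma adjusted p = 0.156).

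*Itgb1*, the β1 subunit, is the partner of all 3 laminin-binding alpha subunits and of most alpha subunits of other classes. It read 10.54 ± 0.37 (SD, n = 5) over WT pools and 11.01 ± 0.47 (SD, n = 4) over KO pools. KO replicates 2 and 3 were high, at 11.47 and 11.33, whereas KO replicates 1 and 4, at 10.75 and 10.48, lay within the WT range of 10.09 to 10.88. The difference was 0.47 ± 0.25 (SE), with a 95% interval of -0.10 to 1.04 and a limma adjusted p of 0.322. The next brightest of its 6 probe sets differed by 0.34 ± 0.21, and with the probe sets averaged the difference was 0.03. *Itgb4*, the β4 subunit that pairs with α6 in hemidesmosomes, was dim, at 4.22 ± 1.40 in WT and 5.12 ± 0.65 in KO islets.

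*Itgav* encodes the αv subunit, which binds RGD proteins such as vitronectin and fibronectin and the latent form of TGFβ, and which pairs with β1, β3, β5, β6 or β8. It read 12.98, 12.97, 12.92, 12.77 and 12.98 in WT pools and 12.46, 12.28, 12.27 and 12.54 in KO pools. The KO pools all lay below the WT pools, and the gap between the groups was close in size to the range within each group. The log2 difference was -0.54 ± 0.09 (SE), or 1.45-fold lower, with a 95% interval of -0.75 to -0.33 and a limma adjusted p of 0.0122. In these whole islets, fewer cells of a type and less RNA per cell cannot be told apart. The mean of 8 beta cell markers was also lower in KO islets, by 0.62, but the markers differed unevenly. *Ins2* (-0.05), *Iapp* (-0.12) and *G6pc2* (-0.24) did not pass the test. By contrast, *Slc2a2* (-1.33), *Nkx6-1* (-0.95), *Ucn3* (-0.85), *Slc30a8* (-0.79) and *Pdx1* (-0.62) fell. The study of these mice had already reported the fallen markers as reduced, so the marker mean is not an independent index of beta cell number. The part of these markers in the *Itgav* result was not tested. The *Itgav* call was kept in 16 of 18 alternative settings, with adjusted p-values from 0.000841 to 0.866. The lowest came when limma's spread was modelled by signal, 1 of these 16 and a setting chosen after seeing the data. Of the 2 losses, 1 came with the 5 *Itgav* probe sets averaged, where the difference was -0.15, and the measurement rests on 1 bright probe set.

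The beta partners of αv did not pass the test. *Itgb5*, the β5 subunit of the vitronectin receptor, read 10.07 ± 0.16 (SD, n = 5) over WT pools and 10.25 ± 0.04 (SD, n = 4) over KO pools, a difference of 0.18 with a 95% interval of -0.04 to 0.41. All KO pools lay between 10.22 and 10.30, and WT replicates 3 and 5 fell among them, at 10.23 and 10.25. *Itgb8*, the β8 subunit that with αv releases TGFβ from its latent form, differed by -0.05 with an interval of -0.40 to 0.30. *Itgb3*, the β3 subunit of platelets and endothelium, was dimmer, with WT values from 4.90 to 6.38 and KO values from 5.42 to 6.51, and differed by 0.63 ± 0.35. *Itgb6*, the β6 subunit of epithelia, was too dim to be tested. Within the arrays the log2 ratio of *Itgav* to *Itgb5* was 2.85 ± 0.16 in WT and 2.13 ± 0.10 in KO islets, which shows only that the signals changed unequally.

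The other RGD-binding alpha subunits that were tested were higher by mean in KO islets without passing the test. *Itga8*, the α8 subunit of mesenchymal cells, differed by 0.32 ± 0.25 (0.10 without WT replicate 2), and *Itga2b*, the αIIb subunit of platelets, by 0.33 ± 0.18. *Itga5*, the α5 subunit of the fibronectin receptor, was too dim to be tested, with values from 3.48 to 6.26 in WT and from 3.42 to 4.77 in KO islets.

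The collagen-binding alpha subunits likewise did not pass the test. The differences were 0.34 ± 0.37 for *Itga1*, the α1 subunit, 0.39 ± 0.24 for *Itga2*, the α2 subunit, and -0.23 ± 0.21 for *Itga10*, the α10 subunit of cartilage. The *Itga1* difference was 0.041 without WT replicate 1, and its second probe set differed by -0.41. *Itga4*, the α4 subunit that binds VCAM-1 and fibronectin, read 7.23 ± 0.71 in WT and 7.94 ± 0.23 in KO islets. Its difference of 0.70 ± 0.33 (SE, limma adjusted p = 0.264) was 0.41 without WT replicate 2, the lowest pool at 6.08. *Itga9*, the α9 subunit, had a low pool in each group, WT replicate 1 at 4.55 and KO replicate 4 at 4.12, and its difference of -0.47 had an interval of -2.08 to 1.13.

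Leukocyte integrins were of low signal. Of the alpha subunits, *Itgae* (αE), *Itgal* (αL) and *Itgax* (αX, CD11c) differed by 0.26 ± 0.22, -0.37 ± 0.51 and -0.01 ± 0.27, and *Itgam* (αM, CD11b) was too dim to be tested. Of the beta subunits, *Itgb2*, the shared β2 subunit of leukocytes, differed by 0.33 ± 0.26, *Itgb7*, the β7 subunit of gut-homing lymphocytes, by 0.72 ± 0.46 (0.26 without KO replicate 2), and *Itgb2l*, a β2-like gene, by -0.20 ± 0.17. None of these 6 passed the test. The marker means of macrophages (0.22 higher, exact permutation p = 0.183) and of lymphocytes (0.34 higher, exact permutation p = 0.643) did not pass theirs. Of 13 macrophage markers 1, *C1qa*, rose by 0.45 (limma adjusted p = 0.0491), beside 3.67% of all tested genes. The lymphocyte mean used 4 of 9 listed markers. It was highest in KO replicate 4, at 7.94, where the other KO pools read 5.72 to 5.99.

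Of the 4 genes that share the letters but encode no subunit, none passed the test. *Itgbl1* encodes a secreted protein with repeats like those of integrin beta subunits. It read 5.90, 5.74, 5.61, 4.85 and 5.38 in WT pools and 7.31, 7.22, 6.31 and 5.65 in KO pools. KO replicates 1 to 3 lay above all WT pools, and KO replicate 4 lay among them. The difference was 1.13 ± 0.36 (SE, limma adjusted p = 0.104). Without KO replicate 4 it was 1.45 and passed (limma adjusted p = 0.0430), and the adjusted p ranged from that value to 0.244 over 17 alternatives. The WT mean of *Itgbl1*, 5.497, lay under the filter at 5.505, so the gene was tested only through its KO signal. These values are therefore not read as a rise. With no filter on dim genes the limma adjusted p was 0.171. *Itgb1bp1*, whose product ICAP1 binds the β1 tail, differed by 0.04 with a 95% interval of -0.16 to 0.24, and *Itgb3bp*, a centromere protein gene, by -0.05 with an interval of -0.39 to 0.28. *Itgb1bp2*, the muscle protein melusin, was too dim to be tested.

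The 8 genes left out as dim were *Itga5*, *Itgam*, *Itgb4*, *Itgb6*, *Lama1*, *Lamb3*, *Lamc3* and *Itgb1bp2*, with group means between 3.16 (*Lama1*, KO) and 5.50 (*Lamc3*, WT). *Lama1*, the α1 chain of embryonic basement membranes, ranged from 1.96 to 6.26 in WT and from 2.26 to 5.22 in KO pools. *Lamb3*, a chain of the epithelial laminins that anchor hemidesmosomes, ranged from 2.37 to 5.29 and from 3.34 to 5.97. *Lamc3*, the γ3 chain, ranged from 4.22 to 6.21 and from 3.79 to 5.32. Such spreads leave a difference between the groups not detectable at this signal.

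Probe sets of one gene often disagreed where they were dim. Of the 39 genes, 22 had several probe sets, and 15 of these had probe sets of both signs, but none had probe sets with an unadjusted p under 0.05 in both directions. With each of 34945 probe sets tested on its own and no filter on signal, limma called 0.970% of all, and 0 of the 84. At an unadjusted p under 0.05 there were 6 of the 84, the brightest or only probe sets of *Itgav*, *Lamb1*, *Lama2*, *Lamb2*, *Itga7* and *Itgbl1*. In that fit the bright *Itgav* probe set had the same difference with a limma adjusted p of 0.0731. Its other 4 probe sets read between 3.65 and 7.14 in WT islets and differed by -0.11, -1.22, 1.00 and 0.09. All 4 *Lamb1* probe sets were higher in KO islets, by 0.21 to 0.71. Of the 4 bright *Itgb5* probe sets, 3 were higher in KO islets, and the differences lay between -0.05 and 0.24.

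**Figure D3:**
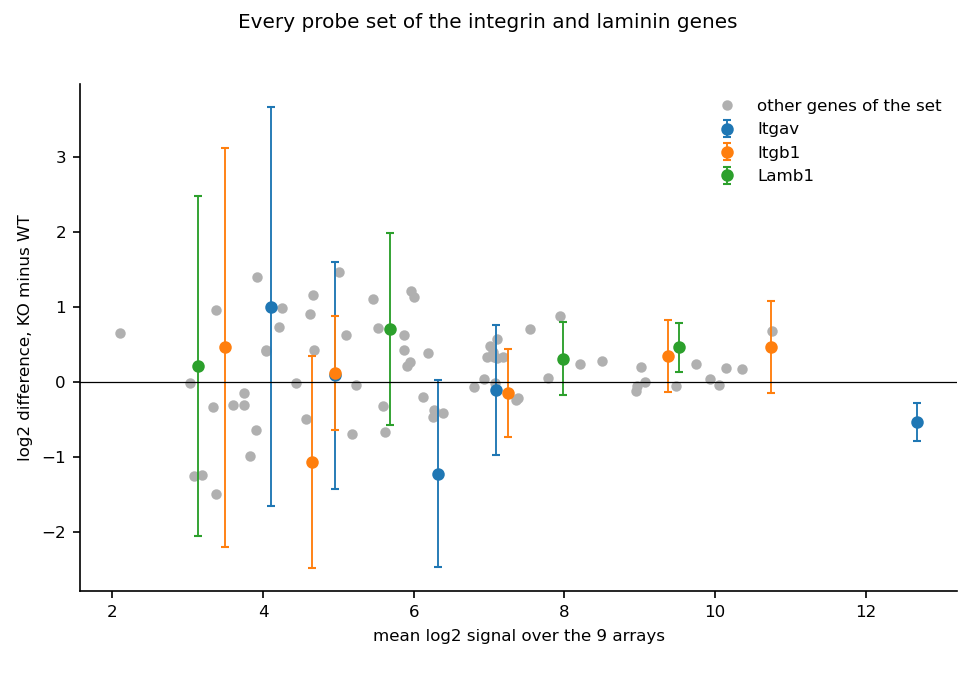
Log2 difference (KO minus WT, vertical axis) of the 84 probe sets against the mean log2 signal over the 9 arrays (horizontal axis), with 95% confidence intervals for the probe sets of *Itgav*, *Itgb1* and *Lamb1*. The bright *Itgav* probe set stands at the right at -0.54, and the differences scatter most among the dim probe sets at the left.

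Genes that work with these subunits are given by lists chosen by function, and their counts stand beside the 3.67% of all tested genes that rose and the 2.63% that fell. Over the 4 lists together, the 14 rises became 4 with probe sets averaged and 8 with each array centred. Of 28 tested adaptors between integrin tails and actin, 2 rose and none fell, with a median difference of 0.20. These were *Flna*, the actin crosslinker filamin A, at 7.65 ± 0.31 (SD, n = 5) over WT pools and 8.51 ± 0.22 (SD, n = 4) over KO pools (limma adjusted p = 0.0259), and *Kank2*, which binds talin, at 7.95 ± 0.45 and 9.08 ± 0.20 (limma adjusted p = 0.0236). The call was kept in 10 of 17 alternative settings for *Flna* and in 11 of 18 for *Kank2*. The core adaptors talin 1 (*Tln1*, 0.24), kindlin 2 (*Fermt2*, 0.09), vinculin (*Vcl*, 0.20) and integrin-linked kinase (*Ilk*, -0.08) did not pass.

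Among 17 tested partners of laminin in the basement membrane, 4 rose and 2 fell, with a median of 0.18. *Nid1*, the nidogen that links laminin γ1 to collagen IV, rose from 10.04 ± 0.27 (SD, n = 5) to 10.78 ± 0.14 (SD, n = 4, limma adjusted p = 0.0218). *Ntn4*, the laminin-related netrin 4, rose by 0.77 ± 0.10 (SE), *Col4a5*, a collagen IV chain, by 0.97 ± 0.16, and *Egflam*, the dystroglycan ligand pikachurin, by 1.03 ± 0.18. *Fras1* and *Npnt*, which encode an epithelial basement membrane protein and the α8β1 ligand nephronectin, fell by 0.98 ± 0.13 and 0.67 ± 0.14. For each of these 6 genes the groups did not overlap, as for 12.5% of all tested genes. The 6 were named for their calls on the same arrays, so this is not separate support. *Nid1* and *Npnt* were chosen after their values were seen. Calls were kept in 15 to 17 of up to 18 settings for *Ntn4*, *Col4a5*, *Egflam* and *Fras1*, but in 11 of 18 for *Nid1* and 8 of 18 for *Npnt*. The main collagen IV chains *Col4a1* (0.15) and *Col4a2* (0.30) did not pass.

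Of 10 tested genes of laminin receptors other than integrins and of the complexes around them, 2 rose and none fell, with a median of 0.28. *Dmd*, dystrophin, rose by 0.94 ± 0.19 and *Sgce*, ε-sarcoglycan, by 0.88 ± 0.15, with calls kept in 10 of 18 and 16 of 18 settings. Both belong to the complex around dystroglycan and are not themselves the laminin receptor. Dystroglycan itself (*Dag1*) differed by -0.02.

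Among 16 tested ligands of integrins other than laminins, 6 rose and 1 fell, with a median of 0.52. *Fn1*, fibronectin, read 7.09, 7.90, 7.11, 6.82 and 6.92 in WT and 8.44, 8.47, 8.46 and 8.40 in KO pools (difference 1.28 ± 0.20, limma adjusted p = 0.00868). *Vtn*, vitronectin, the ligand for which αvβ5 is named, read 8.30, 7.74, 8.55, 8.31 and 8.36 in WT and 9.55, 9.45, 9.32 and 9.56 in KO pools (difference 1.22 ± 0.16, limma adjusted p = 0.00394). Every KO pool lay above every WT pool for both genes, which were named for their calls on the same arrays, so this is not separate support. *Postn*, periostin of fibroblasts, rose by 1.68 ± 0.29, and *Adam9*, a metalloprotease that binds integrins, fell by 0.55 ± 0.09. The remaining rises, of *Mfge8* (0.59), *Ltbp1* (0.90) and *Emilin1* (0.45), were near the threshold, with limma adjusted p-values of 0.0458, 0.0357 and 0.0446, and were kept in 4 of 18, 5 of 16 and 5 of 18 settings.

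**Figure D4:**
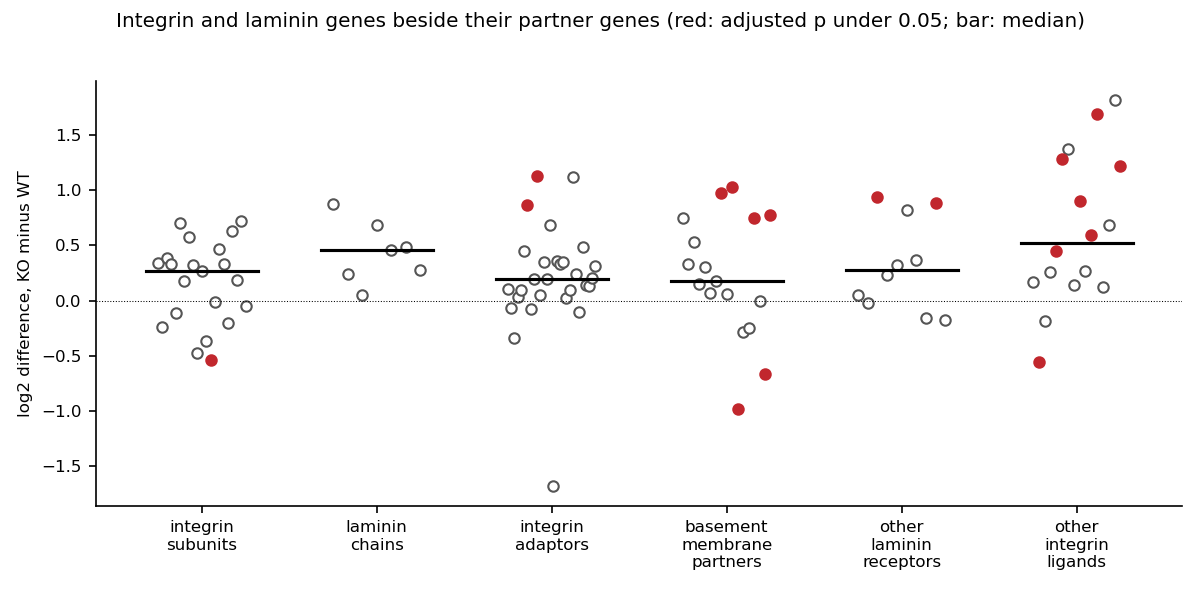
Log2 difference (KO minus WT, vertical axis) of each tested integrin subunit, laminin chain and partner gene, by list; red points passed the adjusted test and bars are medians. The integrin subunits hold 1 red point, below 0, and the laminin chains none, whereas the other integrin ligands hold 7, of which 6 lie above 0.

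Laminins and several integrins are made by islet cells other than beta cells, and the marker means of some of these cells differed between the groups. The stromal mean, over 15 markers of fibroblasts and pericytes, ranged from 8.06 to 8.80 in WT and from 9.19 to 9.71 in KO pools, a difference of 1.05. Of the 15, 6 rose, beside 3.67% of all tested genes. The endothelial mean of 16 markers was 0.28 higher (9.25 to 9.41 in WT, 9.50 to 9.77 in KO pools), with none of the 16 called, beside 6.30% of all tested genes. The Schwann and glial mean of 6 markers was 0.91 higher, that of 4 ductal markers 0.77 higher and that of 3 delta cell markers 0.45 higher. Of the 3 delta cell markers, 2 were higher in KO islets by mean, and 1 of these, *Hhex*, rose (0.84). Of the 8 listed ductal markers, 7 were among the genes named from the arrays, and 4 were bright enough to be used. Among them, *Krt19* read 4.81 in WT and 6.78 in KO islets, and passed the filter at 5.505 only through its KO signal. The ductal difference and its p-value thus rest partly on a marker kept by its KO signal. The beta cell mean was lower, from 13.84 to 14.02 in WT and from 13.23 to 13.42 in KO pools, and 5 of its 8 markers fell. The others, *Ins2* (-0.05), *Iapp* (-0.12) and *G6pc2* (-0.24), did not pass the test. The study of these mice had already reported the fallen markers as reduced in KO islets. By staining, it showed lower protein of some of them within insulin-expressing cells. The beta cell mean and its p-value are therefore not an independent index of beta cell number. For each of these 6 means the groups did not overlap (exact two-sided permutation p = 0.00794, the smallest that 126 splits allow, adjusted p = 0.0146 over 11 cell types). For 3 platelet markers the mean lay 0.80 higher (p = 0.0397 by exact permutation, 0.0624 after adjustment), and for alpha cell markers 0.16 higher (p = 0.127 by exact permutation). The acinar mean lay anywhere between 8.25 and 12.91, in both groups alike (exact permutation p = 0.698). No marker had a value at 0. The part of these cell types in the differences of the laminin, integrin and partner genes was not tested.

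**Figure D5:**
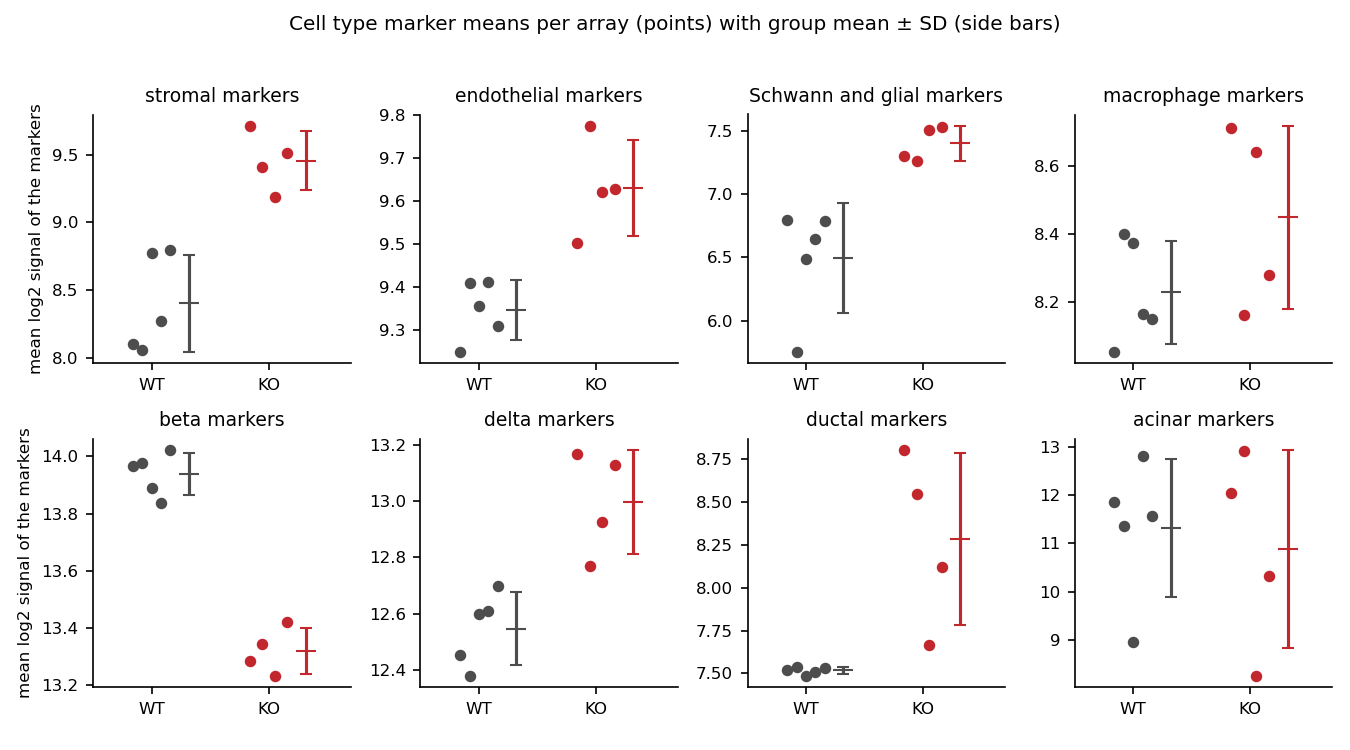
Cell type markers, averaged per array as log2 signals (vertical axis, range set for each panel), for 8 cell types in WT pools (5 grey points) and KO pools (4 red points), with the group mean and SD as side bars. The stromal KO points (9.19 to 9.71) lie above and the beta cell KO points (13.23 to 13.42) below all WT points, and the acinar points of both groups overlap.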

How the data were processed

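The authors deposited 1 log2 signal per probe set and array. Genespring was the software named, and how probes were summarised and arrays scaled is not given in the sources used here. Linear signals had a trimmed mean of 497.1 to 497.7 per array, and between 43 and 107 values per array lay at a floor of log2 0. Genes were named from 34945 probe sets that the platform annotation pairs with 1 gene. The brightest probe set stood for a gene, and genes in the lowest 0.25 by mean signal (under 5.505) were set aside, leaving 13644. The groups were tested with lmFit and eBayes of limma 3.58.1 (R 4.3.3), two-sided and without covariates, and p-values were adjusted over these genes by Benjamini-Hochberg, with a threshold of 0.05. Marker means were compared by exact permutation over arrays. The scripts were tested on simulated data. All 39 genes were named, the called members of each partner list up to 4 by lowest p, and *Rptor*; partner genes beyond these were chosen after their values were seen. Members and lists were chosen with earlier results of these data known. The median within-group SD was 0.83 in the dimmest and 0.13 in the brightest 10% of tested genes, and genes of low signal were thus measured less precisely. Scan dates were not used here.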

Additional observations from a re-analysis of the deposited data

Results flagged for a closer look

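In each group of 4 or 5 arrays, the gap from the highest or lowest array to its nearest neighbour was divided by the range of the group and set against Dixon's critical value. Of 62 groups (31 genes in 2 genotypes), 5 held an array that stood apart, or 8.06%, where chance gives about 5%. *Itgav* was low in WT replicate 4, at 12.77 against 12.92 to 12.98 in the other WT arrays (ratio 0.716), and without that array its difference was -0.58. *Itga6* was high in WT replicate 2, at 10.52 against 10.20 to 10.25 (ratio 0.839), and without that array its difference was 0.23. *Itga9* was low in KO replicate 4, at 4.12 against 6.39 to 6.72 (ratio 0.871), and without that array its difference turned to 0.15. *Itgb3* was low in KO replicate 3, at 5.42 against 6.44 to 6.51 (ratio 0.936), and without that array its difference was 0.89. *Itgb7* was high in KO replicate 2, at 7.28 against 5.39 to 5.65 (ratio 0.862), and without that array its difference was 0.26.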

How the results depend on the processing

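Of 537 member differences recomputed under 18 alternatives, 509 kept their direction and side of the threshold, 23 turned in sign (11 genes, 0 past the threshold), 2 lost and 3 gained the threshold. The rise count of 0 became 1 with a stricter filter that left 9096 genes and with the spread modelled by signal (*Lamb1* in both), a setting chosen after seeing the data, and lay between 0 and 1 when 1 array was left out. The fall count of 1 became 0 with probe sets averaged (*Itgav* -0.15) and with the replicate block (*Itgav* -0.52, limma adjusted p = 0.112). The replicate numbers did not pair the samples (correlations of same-numbered deviations -0.04, 0.09, 0.12 and -0.03), and under the replicate block the calls over all genes went from 501 rises and 359 falls to 33 and 28. *Rptor* lost its call without the filter (-0.72), with the methods' t-test (-0.72), with probe sets averaged (-0.16), with the replicate block (-0.76) and in 7 of 9 leave-one-out fits, with a difference between -0.87 and -0.63 over all 9. Averaging probe sets turned *Itga1* (-0.038), *Itga3* (0.12), *Itga9* (0.37), *Lama3* (-0.20) and *Lama5* (-0.13), centring turned *Itgb1bp1* (-0.0030), quantile normalization turned *Lama4* (-0.0036), and array weights (0.028) and the replicate block (0.030) turned *Itgax*. Leaving out 1 array moved *Itga9* between -0.95 and 0.15, *Itgal* between -0.71 and 0.19, *Itgax* between -0.18 and 0.14, *Itgb3bp* between -0.16 and 0.058, *Itgb8* between -0.12 and 0.071, *Lama4* between -0.20 and 0.43, the lymphocyte mean between -0.18 and 0.56 and the acinar mean between -1.11 and 0.44. The causes were not tested. The 14 rises in the partner lists became 4 with probe sets averaged, 8 with centring, 0 with the replicate block and 6 to 13 when 1 array was left out, and the 3 falls became 0 with the replicate block and 2 to 3 when 1 array was left out, counts added after seeing the data. Signal over background limits the dim members.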
